A study of Mus musculus with 4 samples.

Results

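Fibroblast, mural and epicardial genes of the newborn mouse heart were followed by chromatin accessibility: 39 genes were chosen by name, 14 of fibroblasts, 14 of mural cells (smooth muscle cells and pericytes) and 11 of the epicardium, among 21631 protein-coding genes. Every peak within 20 kb of the body of one of these genes was taken, and overlapping peaks of the 4 libraries were merged into regions. This gave 160 regions, of 43965 within the same distance of any protein-coding gene and 53140 in all. The mural genes held 80 of them, the fibroblast genes 48 and the epicardial genes 32.

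The libraries came from hearts labelled edKO (edKO 1 and edKO 2), in which cardiomyocytes lacked the alpha and beta forms of RXR, a retinoid-binding nuclear receptor that pairs with other nuclear receptors on DNA, and from wild-type hearts (WT 1 and WT 2). All were total hearts of C57BL/6 mice on postnatal day 0, and per the series' design each library is 1 heart and so a biological replicate. The promoter that drove the deletion is not given in the sources used here. Assay for transposase-accessible chromatin with sequencing (ATAC-seq) cuts open DNA with the Tn5 transposase, and a peak is a stretch where the fragments pile up above the local background of the same library.

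Cardiac fibroblasts lay down the collagen and elastic matrix of the heart, and mural cells wrap its vessels, where smooth muscle cells contract and pericytes hold capillaries. Both cell types descend in large part from the epicardium, the mesothelial sheet over the heart, whose cells leave it under the control of transcription factors such as Wt1, Tcf21 and Tbx18. PDGF receptors mark these derivatives, and Notch signalling and serum response factor with myocardin drive the contractile genes of smooth muscle. The deletion was made in cardiomyocytes, and the genes described here mark other cells of the same organ. Some of them, such as Des and Abcc9, are used by cardiomyocytes too. Use of the remaining genes by cardiomyocytes was not examined.

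The edKO libraries held fewer peaks, 27473 and 27142, against 35279 and 38809 in the WT libraries, so a missing call has to be read against the lower number of calls near all genes. The median pileup at a summit, in fragments, was 19 and 18 in the edKO libraries and 23 and 23 in the WT libraries. The background level, taken to stand for depth, was 1.51 in edKO 1 and 1.92 in edKO 2, against 1.81 and 1.80 in WT 1 and WT 2. Among the top 10000 peaks of a list by −log10 p, the median fold over background was 10.2 in edKO 1 and 7.61 in edKO 2, against 10.8 and 11.5 in WT 1 and WT 2, so edKO 2 stood apart in enrichment. A region without a call stayed below the authors' threshold in that library, which does not show that it was closed, and in a whole organ fewer cells of a type and less open chromatin per cell cannot be told apart. Starts of cardiomyocyte genes were called in all 4 libraries in 13 of 14 cases (92.9%), and those of immune genes in 0 of 5. Calls at the deleted receptor genes were not used to check the genotype labels, since the exons removed are not known from the labels.

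Around the 39 genes, edKO hearts had fewer called peaks than WT hearts. The edKO libraries had 76 and 68 peaks there, against 104 and 129 in the WT libraries. The means were 72.0 ± 5.66 in edKO hearts and 116.5 ± 17.7 in WT hearts (SD, n = 2 each), a ratio of 0.618, where peaks near any protein-coding gene gave 0.749. The groups did not overlap, and the exact two-sided permutation test gave p = 0.333, the smallest that 2 hearts against 2 allow. Divided by the length of each list, the peaks near these genes were 0.277% and 0.251% of the edKO peaks, against 0.295% and 0.332% of the WT peaks. The difference of the means was -0.05 percentage points (p = 0.333, exact permutation test, 2 hearts against 2), and the Wilson 95% intervals of the 4 shares overlapped. Intervals cover counting error only. With peaks of −log10 p of at least 5 alone, the shares of the genotypes overlapped (difference -0.0412 points, exact permutation p = 0.667, 2 hearts against 2). With lists of equal length the ratio of peaks was 0.883, in place of 0.618.

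The mural genes had the lowest ratio of the 3 lists. Peaks near them numbered 35 and 33 in the edKO libraries, against 55 and 67 in the WT libraries, a ratio of 0.557. As shares of each list these were 0.127% and 0.122% in edKO hearts, against 0.156% and 0.173% in WT hearts, without overlap (p = 0.333, exact permutation test, 2 hearts against 2). Fibroblast genes had 24 and 22 peaks in the edKO libraries and 31 and 37 in the WT libraries, a ratio of 0.676. Epicardial genes had 17 and 13 in the edKO libraries and 18 and 25 in the WT libraries, a ratio of 0.698, and their shares of the lists overlapped between the genotypes. Whether the 3 lists differ from each other was not tested. For comparison, cardiomyocyte genes had 82 and 89 peaks in the edKO libraries and 98 and 103 in the WT libraries (ratio 0.851), and endothelial genes 30 and 25 in the edKO libraries and 34 and 43 in the WT libraries (ratio 0.714). As a share of each list the cardiomyocyte peaks went the opposite way to those of the 39 genes, at 0.298% and 0.328% in edKO hearts, against 0.278% and 0.265% in WT hearts, a difference of 0.0416 percentage points (p = 0.333, exact permutation test, 2 hearts against 2). The share near any protein-coding gene was also higher in edKO hearts, at 87.2% and 86.5%, against 85.9% and 85.2% in WT hearts. Endothelial shares overlapped between the genotypes. The part of these other cell types in the values of the 39 genes was not tested.

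**Figure D1:**
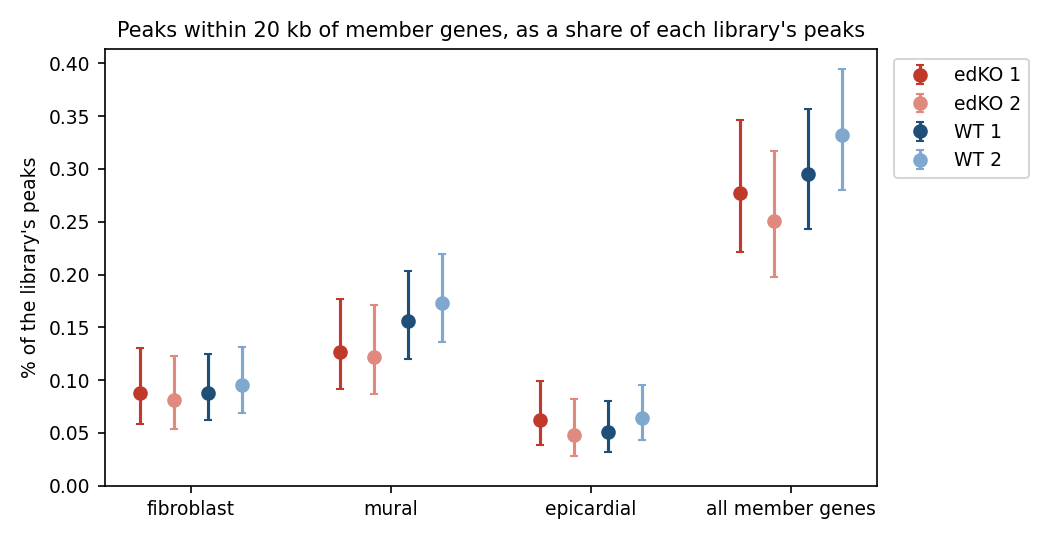
Peaks within 20 kb of fibroblast, mural, epicardial and all member genes as a percentage of each library's peaks, with Wilson 95% intervals (vertical bars), for edKO 1, edKO 2, WT 1 and WT 2. For mural genes both edKO points (0.127% and 0.122%) lie below both WT points (0.156% and 0.173%), with overlapping intervals, and for epicardial genes the genotypes are mixed.

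Of the 84 regions near the 39 genes that both WT libraries called, 22 were called in neither edKO library (WT-only). That is 26.2% (Wilson 95% interval 18% to 36.5%), beside 17.7% of the regions near any protein-coding gene and 19.4% of all merged regions. By cell type the share was 29.2% for fibroblast genes (7 of 24, 14.9% to 49.2%), 28.3% for mural genes (13 of 46, 17.3% to 42.5%) and 14.3% for epicardial genes (2 of 14, 4.01% to 39.9%). The interval of each of the 3 lists contained 17.7% and that of the 39 genes together began just above it, and regions of the same gene are not independent. The fibroblast and mural shares lay above that of all genes in each of 12 alternative settings, the epicardial share in 6 of them, such as a window of 5 kb (25%, beside 16.6%). The 22 regions were spread over 16 genes, of which 5 were fibroblast, 9 mural and 2 epicardial genes.

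The regions near fibroblast and mural genes had a lower median strength than those near any protein-coding gene, and those near epicardial genes did not. The strength of a region is the mean percentile of its −log10 p in the WT lists. Its median was 52.7 for the 84 regions, against 62.1 for those near any protein-coding gene. The median was 52.6 for fibroblast, 50.3 for mural and 64.5 for epicardial genes. Where the WT-only share of all genes' regions was taken in each of 10 classes of strength and applied to the 84 regions, it gave 18.8 regions, beside the 22 counted. The same sum was 5.57 for fibroblast genes (7 counted), 11.3 for mural genes (13 counted) and 1.98 for epicardial genes (2 counted). Read at equal strength, the counts of the 3 lists were thus close to those of all genes. Of the 30 regions above the 60th percentile 0 were WT-only, beside 1.44% of such regions near any protein-coding gene (184 of 12797).

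The count also moved with the length of the lists and with single libraries. With every list cut to its strongest 27142 peaks, 13 of 64 regions were WT-only (20.3%), beside 9.59% near any protein-coding gene. Without edKO 1, the regions called in WT but not in edKO numbered 37 of 84 (44.0%, beside 32.9%), and without WT 1 they numbered 54 of 126 (42.9%, beside 31.6%). The share near the 39 genes was above that near all genes in each of these settings. Leaving out Des and Abcc9 gave 17 of 70 regions (24.3%), and 8 of 32 near the remaining mural genes (25.0%). The edKO minus WT difference in the share of peaks was then -0.0309 percentage points, in place of -0.05. The ratio of peaks was then 0.65, in place of 0.618.

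**Figure D2:**
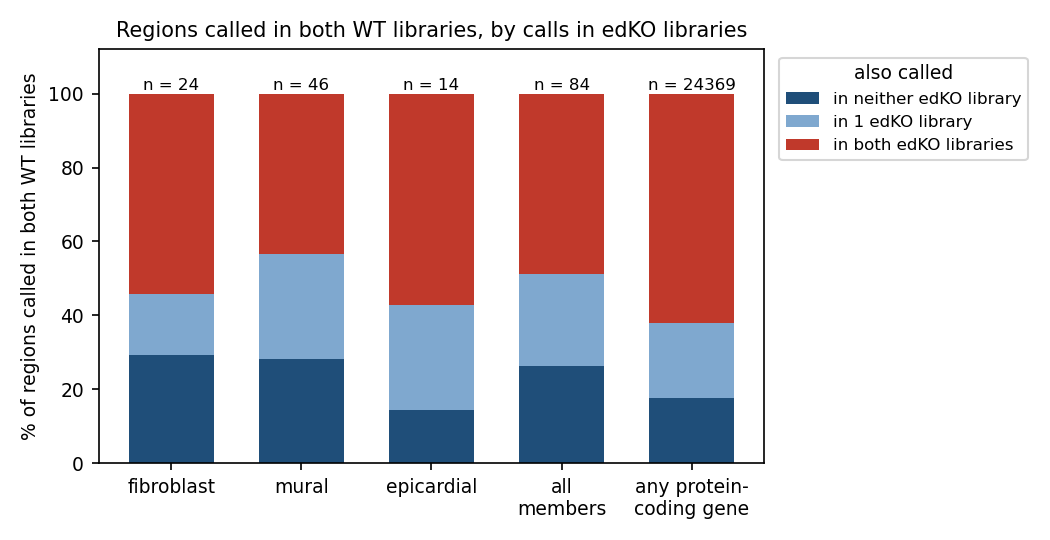
Regions called in both WT libraries, split by their calls in the edKO libraries (stacked percentages; n is the number of regions), for fibroblast, mural, epicardial and all member genes and for any protein-coding gene. The darkest segment is the WT-only share: 29.2%, 28.3%, 14.3% and 26.2% for the member lists, beside 17.7% for all genes.

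A further 21 of the 84 regions had calls from both WT libraries and from 1 edKO library, 15 times in edKO 1 and 6 times in edKO 2. Near mural genes the split was 11 against 2. All genes together leaned the same way, with 3716 regions shared with edKO 1 and 1246 with edKO 2, the library with the lower enrichment. The part of that enrichment in the split was not tested. The remaining 41 regions, 48.8% of the 84, were called in all 4 libraries, beside 62.0% near any protein-coding gene. They belonged to 27 of the 39 genes.

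By place, counted for each pair of a region and a gene, 11 of 30 regions inside a member's body were WT-only (36.7%), beside 29.3% inside the bodies of all genes. In the flanks they were 8 of 36 (22.2%), beside 15% for all genes, and within 1 kb of a gene's start or end 3 of 19 (15.8%), beside 5.78%. The order of the 3 places was the same for the members as for all genes, with WT-only regions most frequent inside gene bodies. Exons and introns were not told apart, because the gene table used here gives only the outer ends of genes. For 33 of the 160 regions the nearest gene body was not a member's, so the gene they act on is unknown. Their WT-only share was 25.0% (5 of 20), beside 26.6% (17 of 64) where a member was nearest.

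The number of regions differed widely between genes. Dcn and Lum, which encode the small matrix proteoglycans decorin and lumican, and Rgs5, a regulator of G protein signalling that marks pericytes, had no region in any library. These are 7.69% of the 39 genes, beside 20.9% of all protein-coding genes, and the median gene had 3 regions in both sets. The most regions lay near Des and Mylk, with 13 each, and near Gsn and Abcc9, with 10 each. In 12 of the 39 genes both WT libraries had more calls than both edKO libraries (30.8%, beside 18.2% of all protein-coding genes). In 1 gene, Bnc1, both edKO libraries had more (2.56%, beside 0.962%). Near Des, which encodes the intermediate filament protein desmin, 5 and 4 regions were called in the edKO libraries, against 10 and 12 in the WT libraries. Near Cspg4, the pericyte surface proteoglycan, the counts were 2 and 2 in edKO hearts and 5 and 7 in WT hearts.

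**Figure D3:**
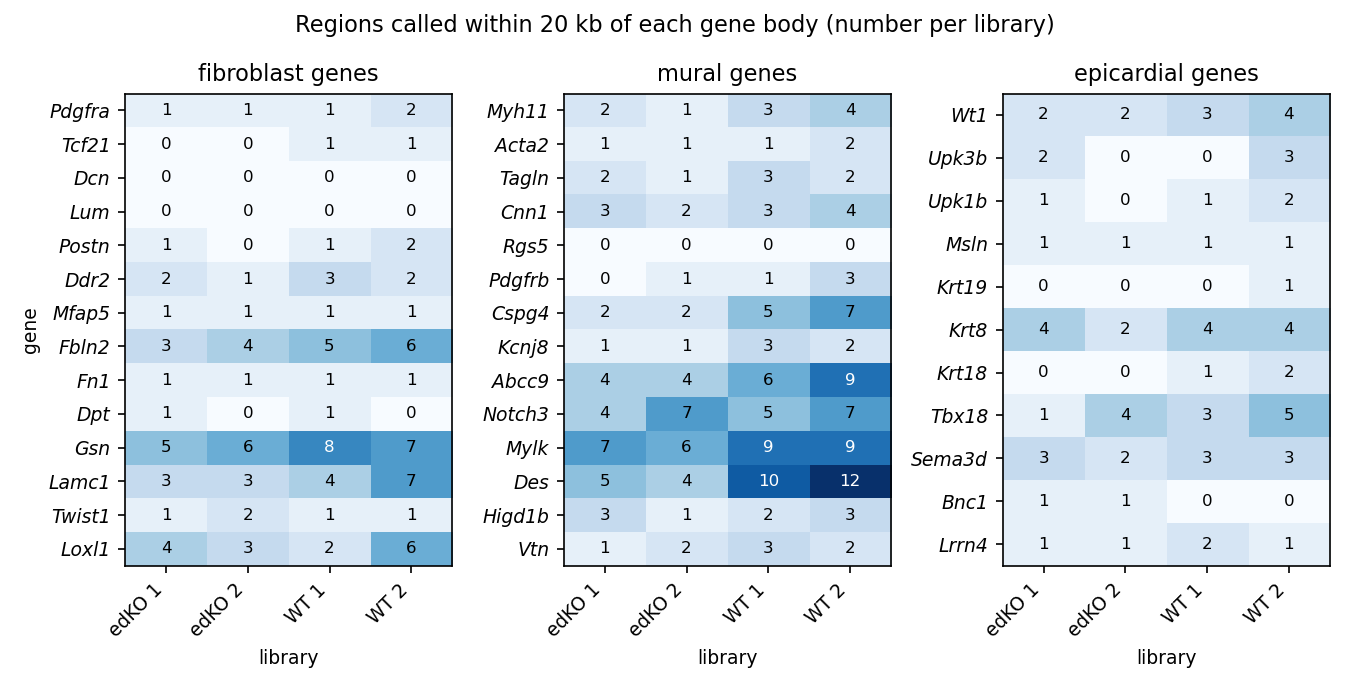
Number of regions within 20 kb of each gene body called in edKO 1, edKO 2, WT 1 and WT 2, for the 14 fibroblast, 14 mural and 11 epicardial genes; darker cells hold more regions. Des (5, 4, 10 and 12) and Cspg4 (2, 2, 5 and 7) show the widest gap between genotypes, Dcn, Lum and Rgs5 are empty, and Bnc1 has calls in the edKO columns alone.

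Among the fibroblast genes, the transcription factor Tcf21, which epicardial cells need to become fibroblasts, had a single region, and it was WT-only. It covered the gene start (GRCm38 chromosome 10, 22820002 to 22820418), with a summit pileup of 16 fragments in WT 1 and 12 in WT 2 and the authors' −log10 p at 10.5 and 7.20. Counted from the annotated start, the summits lay at -148 in WT 1 and at 8 in WT 2. Of 17274 genes with a promoter entry, 235 had a start that was WT-only. The RefSeq promoter of Tcf21 (GRCm38.p6, chr10:22820094-22820393, minus strand, from 250 bases before to 50 after the start) is shown because it was the only start among the members with a promoter entry that was WT-only, and its capitals mark the 5 bases on each side of the WT 1 and WT 2 summits:
Tcf21 promoter: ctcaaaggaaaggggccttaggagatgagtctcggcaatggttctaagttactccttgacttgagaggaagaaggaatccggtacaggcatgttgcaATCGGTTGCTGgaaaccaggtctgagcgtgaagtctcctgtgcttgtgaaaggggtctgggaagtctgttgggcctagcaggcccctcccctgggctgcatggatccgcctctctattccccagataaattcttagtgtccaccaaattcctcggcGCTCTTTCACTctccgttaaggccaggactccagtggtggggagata
This promoter had a GC content of 53.3% and held none of the 5 motifs searched.

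Gsn, which encodes the actin-severing protein gelsolin, showed the fullest set of regions of any fibroblast gene. Its start (chromosome 2, 35255994 to 35256533) was called in all 4 libraries, with pileups of 26 and 25 in the edKO libraries and 56 and 59 in the WT libraries. Inside the gene, 2 regions were WT-only: the first (35265305 to 35265598) had pileups of 29 and 26 in WT 1 and WT 2, and the second (35297990 to 35298285) had 25 and 21. Another pair of regions in the body stayed called in all hearts. The first (35270501 to 35270935) had pileups of 37 and 22 in edKO hearts and 54 and 60 in WT hearts, and the other (35277685 to 35278068) had 19 and 25 in edKO hearts and 48 and 45 in WT hearts. At the start and at this pair, both edKO pileups were below both WT pileups. The same held at 84.9% of regions near any protein-coding gene called in all 4 libraries.

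Lamc1, the gamma chain of basement membrane laminins, held the strongest WT-only region of the fibroblast list. It lay in the gene body (chromosome 1, 153280478 to 153280795), with −log10 p of 12.3 and 18.2 and pileups of 21 and 28 in WT 1 and WT 2. The region at an outer end of the same gene (153332309 to 153333554) was among the strongest of all, with pileups of 108 and 98 in edKO hearts and 113 and 143 in WT hearts. Lamc1 had no promoter entry to give its strand, so its start and its far end were not told apart. Loxl1, an enzyme that cross-links elastin, had a WT-only region 6810 bp from its body (chromosome 9, 58280550 to 58280913; pileups 22 and 25 in WT 1 and WT 2). Its other flank (58326391 to 58326842) was called in every heart with pileups of 13 and 16 in edKO hearts and 37 and 42 in WT hearts. That was the lowest edKO to WT ratio of the member regions called in all 4 libraries, 0.367. Loxl1 also had regions called in both edKO hearts and in WT 2, but not in WT 1. A flanking one (58275117 to 58275426) had 12 and 14 in edKO hearts and 26 in WT 2. Another in the body (58295850 to 58296429) had 12 and 16 in edKO hearts and 15 in WT 2. Further weak WT-only regions lay in the bodies of Lamc1 and of Ddr2, a collagen receptor.

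Most other fibroblast genes were called in both genotypes. The region at an end of Fn1, the fibronectin gene (chromosome 1, 71652674 to 71653604), had pileups of 24 and 26 in edKO hearts and 30 and 39 in WT hearts. A region inside Pdgfra, the PDGF receptor of fibroblasts (chromosome 5, 75155767 to 75156617), had 21 and 16 in edKO hearts and 35 and 39 in WT hearts. At the start of Twist1, a factor of mesenchymal cells (chromosome 12, 33957303 to 33958223), pileups were 12 and 18 in edKO hearts and 17 and 13 in WT hearts, so the genotypes overlapped. The start of Fbln2, the matrix protein fibulin (chromosome 6, 91212606 to 91212946), was called in edKO 2 (19) and in WT 1 and WT 2 (16 and 20). Regions of Postn, which encodes periostin, and Dpt, which encodes dermatopontin, were never called in both hearts of a genotype. The strongest region assigned to the list by distance, 2745 bp from Ddr2 (chromosome 1, 169968928 to 169969562), lay nearest to Hsd17b7 and had 92 and 76 in edKO hearts and 125 and 149 in WT hearts.

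Among the mural genes, Des had 3 WT-only regions and Cspg4 and Abcc9 had 2 each. The region inside Cspg4 (chromosome 9, 56891446 to 56891775) had pileups of 36 and 34 in WT 1 and WT 2, the highest mean of the 22 WT-only regions. A second one, nearest to Odf3l1 (56851775 to 56852189), had 14 and 25. Another pair of regions in Cspg4 was called in every heart, at 56868313 to 56868707 with 27 and 25 in edKO hearts and 46 and 47 in WT hearts, and at 56893971 to 56894411 with 22 and 26 in edKO hearts and 34 and 31 in WT hearts. Cspg4 thus had missing calls in edKO hearts as well as calls with lower pileups. Pileups are not corrected for depth. They were lower in both edKO hearts at 84.9% of the regions near any protein-coding gene called in all 4 libraries.

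Around Des, beside the 3 WT-only regions, 4 more had calls in both WT hearts but in 1 edKO heart. The strongest WT-only one lay 12641 bp away (chromosome 1, 75347287 to 75347651), with pileups of 28 and 35 in WT 1 and WT 2. The Des start (75360056 to 75360784) was called throughout, with 47 and 30 in edKO hearts and 59 and 75 in WT hearts. Abcc9 and Kcnj8 lie side by side and encode the subunits of the potassium channel that sets vascular tone, the sulfonylurea receptor and the pore. Kcnj8 had a WT-only region in its body (chromosome 6, 142567440 to 142567789; 21 and 20 in WT 1 and WT 2), and its start (142571136 to 142571614) was called in all hearts with 11 and 13 in edKO hearts and 18 and 19 in WT hearts. The strongest region inside Abcc9 (142689671 to 142690065) had 23 and 19 in edKO hearts against 51 and 60 in WT hearts, a ratio of 0.378. Of the member regions called in all 4 libraries, only the flank of Loxl1 had a lower ratio.

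The contractile genes of smooth muscle showed the same mixture. The WT-only region near Tagln, which encodes the actin-binding protein transgelin, lay 886 bp from that gene and nearest to Sidt2 (chromosome 9, 45936944 to 45937281; 27 and 36 in WT 1 and WT 2). Inside Mylk, the myosin light chain kinase gene, 1 region was WT-only (chromosome 16, 34937673 to 34938022; 23 and 26), and the strongest region called throughout (34958607 to 34959062) had 42 and 30 in edKO hearts and 64 and 75 in WT hearts. At an end of Myh11, the smooth muscle myosin heavy chain gene (chromosome 16, 14291122 to 14291680), pileups were 16 and 15 in edKO hearts and 18 and 17 in WT hearts. That is a narrow gap, while a weaker region in its flank, nearest to Nde1, was WT-only. Cnn1, which encodes calponin, had no WT-only region, and neither had Higd1b, a pericyte marker.

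At the start of Acta2, the gene of smooth muscle alpha-actin (chromosome 19, 34255233 to 34255760), pileups were 13 and 12 in edKO hearts and 15 and 32 in WT hearts. WT 2 stood well above the other 3 libraries. The Acta2 promoter (GRCm38.p6, chr19:34255324-34255623, minus strand, RefSeq) was chosen after its values were seen, as a smooth muscle start that was called in every heart, and capitals mark its match to the MCAT element, at -146 from the start:
Acta2 promoter: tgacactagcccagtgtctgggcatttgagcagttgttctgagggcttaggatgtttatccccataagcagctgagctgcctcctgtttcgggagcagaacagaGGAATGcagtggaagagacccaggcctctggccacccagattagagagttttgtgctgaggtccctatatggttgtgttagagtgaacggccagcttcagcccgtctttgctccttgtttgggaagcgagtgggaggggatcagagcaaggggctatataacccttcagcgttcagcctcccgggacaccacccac
The MCAT element, CATTCC on either strand, is bound by TEAD factors in muscle genes. No member promoter held a strict match to the CArG box, the site of serum response factor, beside 1.54% of all 21045 promoters. A strict match has only A or T between CC and GG. The Acta2 promoter shown holds ccctatatgg and ccttgtttgg, which each depart from that pattern by a single base. The search says only that a strict match is not in these windows.

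The regions of Notch3, the Notch receptor of vascular smooth muscle, did not all go the same way. Its start (chromosome 17, 32166764 to 32167082) was called in both edKO hearts (21 and 19) and in WT 2 (26). The highest pileup there was that of WT 2, and only WT 1 lacked a call. A region in its body (32143099 to 32143531) was WT-only, with 24 and 17 in WT 1 and WT 2. A flanking region nearest to Ephx3 (32179612 to 32180180) had 12 and 13 in edKO hearts against 10 and 10 in WT hearts. Pdgfrb, the PDGF receptor of pericytes, had 5 regions, each called in a single library: 0 in edKO 1, 1 in edKO 2, 1 in WT 1 and 3 in WT 2. The strongest mural region by distance, 9610 bp from Vtn, the vitronectin gene (chromosome 11, 78511935 to 78512655), was nearest to Poldip2 and Tmem199 and had 70 and 64 in edKO hearts and 94 and 103 in WT hearts.

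**Figure D4:**
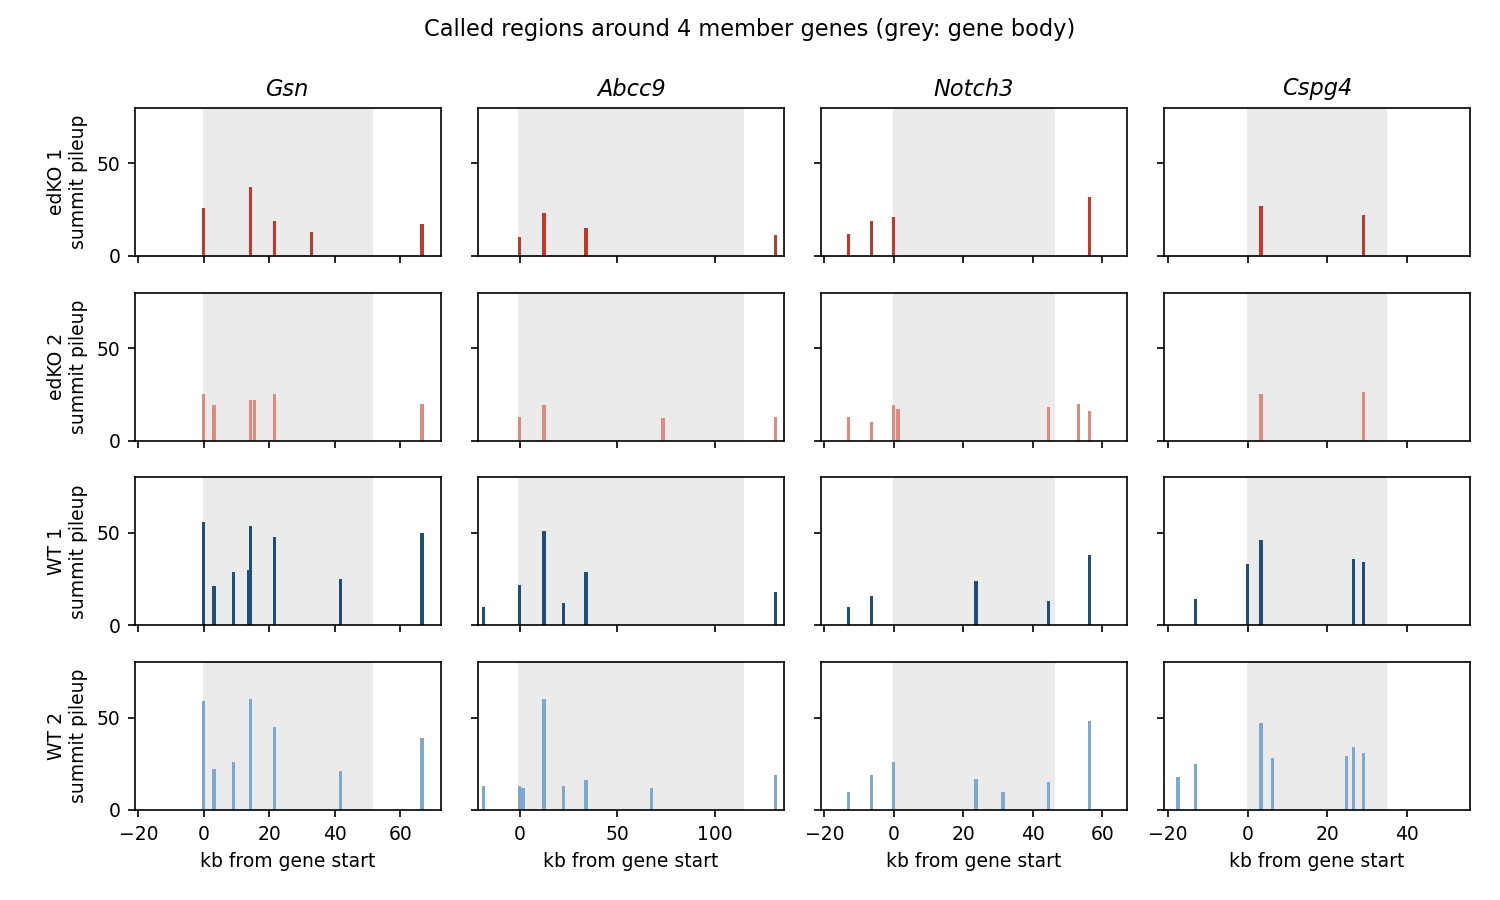
Regions around Gsn, Abcc9, Notch3 and Cspg4 in edKO 1, edKO 2, WT 1 and WT 2 (rows from top to bottom); the horizontal axis is the distance in kb from the gene start along the direction of transcription, bar height is the summit pileup in fragments, and grey marks the gene body. Gsn and Cspg4 show bars in both WT rows that are missing from the edKO rows, and Notch3 shows a start called in edKO 1, edKO 2 and WT 2.

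Of the epicardial genes, Wt1 and Tbx18 each had 1 WT-only region. That of Wt1, a zinc finger factor of the epicardium, lay in the gene body (chromosome 2, 105134303 to 105134744), with pileups of 21 and 24 in WT 1 and WT 2. That of Tbx18, a T-box factor of the epicardium, lay 98 bp past the gene's far end (chromosome 9, 87702366 to 87702702), with 11 and 12. The Tbx18 start (87731073 to 87731589) was called in all hearts, with 28 and 15 in edKO hearts and 25 and 36 in WT hearts, so the genotypes overlapped. A region at an end of Wt1 (105126296 to 105126659) had 14 and 15 in edKO hearts and 17 and 25 in WT hearts.

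Bnc1, which encodes the zinc finger protein basonuclin of mesothelial cells, had the only edKO-only region. It covered the gene start (chromosome 7, 81992222 to 81992723) with pileups of 9 in edKO 1 and 17 in edKO 2 and −log10 p of 5.36 and 11.5. This was 1 of the 45 member regions called in both edKO hearts (2.22%), beside 1.24% near any protein-coding gene, a share near that of all genes. Counted by gene starts, 1 of the 25 members with a promoter entry was edKO-only, beside 38 of 17274 genes. Both comparisons rest on this 1 region. The edKO-only count moved with the setting: with −log10 p of at least 10 the number of edKO-only regions was 0. Without edKO 1 it was 14, without edKO 2 it was 5 and without WT 2 it was 4. With a library left out, fewer calls or fewer missing calls are needed, so by construction this count can only stay or rise. The Bnc1 promoter (GRCm38.p6, chr7:81992250-81992549, minus strand, RefSeq) is shown because its start was called only in edKO hearts, and its capitals mark 6 GC boxes, GGGCGG on either strand:
Bnc1 promoter: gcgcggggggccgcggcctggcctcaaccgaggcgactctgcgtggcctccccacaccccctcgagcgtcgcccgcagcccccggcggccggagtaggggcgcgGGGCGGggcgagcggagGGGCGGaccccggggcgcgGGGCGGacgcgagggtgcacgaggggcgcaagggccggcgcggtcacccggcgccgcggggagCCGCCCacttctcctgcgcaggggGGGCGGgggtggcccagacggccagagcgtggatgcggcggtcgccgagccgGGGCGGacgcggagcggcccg
Its GC content was 83.3%, and 46.7% of all promoters held at least 1 GC box.

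The other epicardial genes had no region called in a single genotype in both of its hearts. Sema3d, a guidance signal made by the epicardium, was called at its start in all hearts (chromosome 5, 12383222 to 12383647), with pileups of 12 and 14 in edKO hearts and 25 and 17 in WT hearts. A region in its body (12499726 to 12500312) had 20 and 18 in edKO hearts and 41 and 24 in WT hearts. Near Msln, the gene of the surface protein mesothelin, the single region was nearest to Ciao3 (chromosome 17, 25773510 to 25774078) and had 23 and 16 in edKO hearts and 47 and 40 in WT hearts. At each of these regions both edKO hearts were below both WT hearts. So they were at 7 of the 8 epicardial regions called in all 4 libraries (87.5%), beside 84.9% near any protein-coding gene. Krt8, a keratin of simple epithelia, was called near its start in edKO 1, WT 1 and WT 2 (chromosome 15, 102002902 to 102003487), with pileups of 17 in edKO 1 and 25 and 18 in WT 1 and WT 2. The strongest region by distance, 18932 bp from Krt8 and nearest to Krt78 (101977205 to 101977779), had 55 and 55 in edKO hearts and 67 and 105 in WT hearts. Krt19 and Krt18, also keratins, and the uroplakin genes Upk3b and Upk1b had no region called in both hearts of a genotype, and Lrrn4, another mesothelial marker, had 1 region in every heart, nearest to Crls1.

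Across the 41 regions called in all 4 libraries, the pileup was lower in both edKO hearts than in both WT hearts in 33 (80.5%), beside 84.9% near any protein-coding gene. Pileups are not corrected for depth. The median ratio of edKO to WT pileup was 0.635, with 0.613 for fibroblast, 0.643 for mural and 0.629 for epicardial genes, and 0.617 near any protein-coding gene. The medians of the 3 lists were thus close to that of all genes. Regions near all genes ran from 0.433 to 0.903 between the 5th and the 95th percentile, and 3 member regions lay below that range and 3 above it. Below it were the flank of Loxl1 (0.367), the body of Abcc9 (0.378) and a flank of Gsn nearest to Stom (0.416; 17 and 20 in edKO hearts, 50 and 39 in WT hearts).

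The pileup was higher in both edKO hearts than in both WT hearts at 2 of the 41 regions (4.88%), beside 0.205% near any protein-coding gene. The first lay near Mfap5, a microfibril-associated glycoprotein of elastic fibres (chromosome 6, 122508385 to 122508940), with pileups of 26 and 19 in edKO hearts and 15 and 17 in WT hearts and a ratio of 1.41. The second was the flank of Notch3 nearest to Ephx3, with a ratio of 1.25. These differences of a few fragments between 2 hearts of each genotype were not tested.

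**Figure D5:**
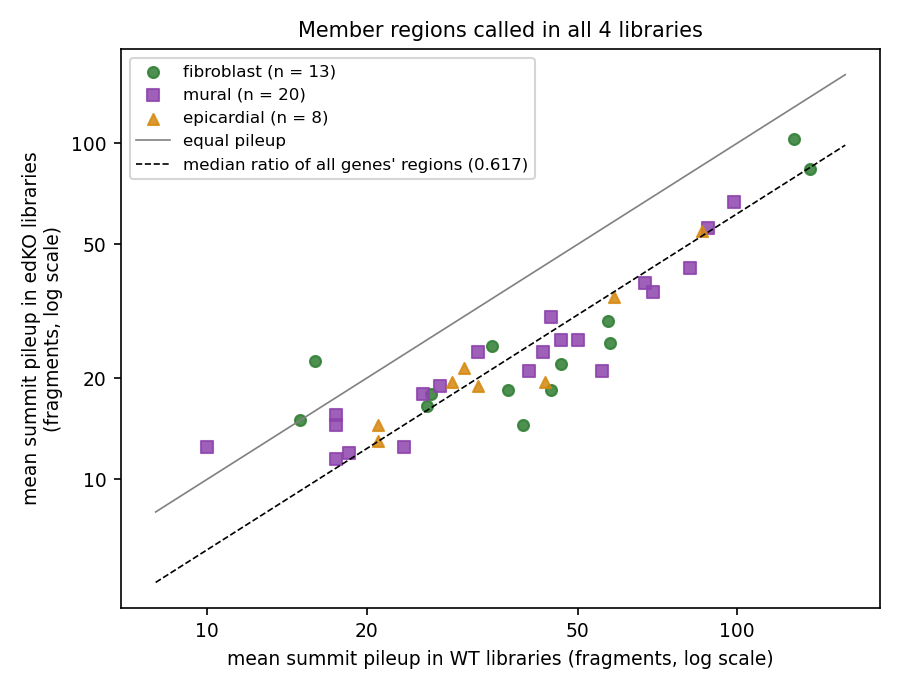
Mean summit pileup in the WT libraries (horizontal, fragments, log scale) against that in the edKO libraries (vertical, fragments, log scale) for the 41 member regions called in all 4 libraries, by cell type. The points follow the dashed line, which is the median ratio of 0.617 near any protein-coding gene, and the Mfap5 and Notch3 flanks lie above the solid line of equal pileup.

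Gene starts could be placed for the 25 of the 39 genes with a RefSeq promoter entry. Their starts were called in all 4 libraries in 8 cases (32%), beside 49.7% of all genes with an entry. These were Gsn and Twist1 of the fibroblast list (2 of 8), Des, Acta2, Kcnj8 and Abcc9 of the mural list (4 of 10) and Tbx18 and Sema3d of the epicardial list (2 of 7). The starts of 7 genes had no call at all: Dpt, Ddr2, Rgs5, Mylk, Vtn, Upk3b and Krt18. Endothelial genes had 4 of 7 starts called in all hearts.

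Signals and regulators that act on these cells had WT-only regions about as often as other genes. The list of 16 genes covered PDGF and TGF-beta ligands and receptors, Notch partners, and factors such as Srf, Myocd, Tead1 and Gata6. Of its 52 regions with calls in both WT hearts, 10 lacked one in either edKO heart (19.2%), beside 17.7% near any protein-coding gene, and 29 were called in all hearts. The WT-only regions lay near Pdgfa and Myocd, with 2 each, and near Pdgfd, Tgfb1, Tgfb3, Tgfbr1, Notch2 and Gata6, with 1 each. Myocd encodes myocardin, the partner of serum response factor in smooth muscle, and of its 12 regions 5 and 6 were called in the edKO libraries and 8 and 10 in the WT libraries. Of Pdgfb and Srf, 3 regions each were called in all hearts and 0 were WT-only.

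The promoters of these genes were searched for 5 short motifs, as a description without a test. The nuclear receptor half-site AGGTCA, on either strand, was found in 6 of 28 promoters (21.4%), beside 14.6% of all 21045 promoters. These were 4 of the 7 epicardial promoters (Krt8, Krt18, Lrrn4 and Upk3b), 2 of the 11 fibroblast promoters (Gsn and Postn) and 0 of the 10 mural promoters. None of these 6 promoters overlapped a called peak in any library. The Gsn match lay in the promoter at chromosome 2, 35266494 to 35266793, and not at the start called in all hearts. The Postn match lay in the promoter at chromosome 3, 54359017 to 54359316. The MCAT element was in 6 (21.4%; Abcc9, Acta2, Mylk, Vtn, Lrrn4 and Upk3b), beside 13.5%, and the TATA box TATAAA in 6 (21.4%), beside 12.7%. GC boxes were in 10 (35.7%), beside 46.7%. The half-site, MCAT and TATA shares were thus above those of all promoters and the GC box share below, on few promoters. A match is a description of the sequence, and the window holds no information on distal regions, where most of the WT-only calls lay.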

How the data were processed

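The authors deposited 1 peak list for each of the 4 ATAC-seq libraries, called without pooling. MACS2 (peaks), Bowtie2 (alignment), cutadapt, SAMtools, bcl2fastq and CASAVA are named in the submitters' processing notes, with build GRCm38 (mm10). No source used here gives their versions, the Tn5 shift, duplicate handling or filters. With each peak the authors deposited a fold enrichment at the summit (a ratio to the local background of the same library), its −log10 p and −log10 q, and a score, which was not used. These values are the authors' and were used only within a list, to describe and rank its peaks. The lowest −log10 p of a list was 3.00 to 3.04.

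Peaks overlapping by at least 1 bp were merged, and each merged region was assigned the libraries whose peaks it held. The pileup at a summit was solved from the deposited fold and −log10 p under a Poisson tail, and came out whole, within 0.001 in −log10 p, for 99.9943% of peaks or more in every list. The lowest background of a library stands for its relative depth. Genes came from RefSeq GRCm38.p6, and all 39 members were matched. A promoter entry, which gives strand, existed for 25. Gene starts and ends are within 1 kb. Shares have Wilson 95% intervals, and libraries were compared by an exact permutation test.

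The members and lists were chosen with earlier results of these data known. The rule for named regions was the 5 strongest WT-only regions of each list by mean percentile of −log10 p, every edKO-only region, every gene end called in both libraries of a single genotype, and the strongest region called in all 4 libraries for each list. Further regions were named after their values were seen. Alternatives were lists of equal length, stricter −log10 p, windows of 5 and 50 kb, a peak covering at least 50% of a region, assignment to the nearest body, and leaving out each library. Counting and pileup steps were tested on simulated data. Python 3.11.15, pandas 2.3.3, NumPy 2.4.6 and SciPy 1.17.1 were used.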

Additional observations from a re-analysis of the deposited data

How the results depend on the processing

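A share was held to be kept if it lay within the Wilson interval of the main setting, and a count if within a set fold of the reported one. The ratio had only to stay below 1, as 0.883 did, and the difference to keep its sign. By these loose bounds, 82 of 96 values were kept for 8 results under 12 alternatives each, and no difference changed sign. The other 14 lay among the following settings. With lists of equal length the WT-only count was 13 (22 as reported) and the edKO-only count 2 (1 as reported). The edKO-only count was 0 at −log10 p of at least 10 and 2 with a window of 50 kb. Leaving out 1 library in turn gave WT-only shares of 33.0% to 44.0% for all members, 32.6% to 52.2% for mural, 33.3% to 41.7% for fibroblast and 21.4% to 40% for epicardial genes, where that of all genes was 22.8% to 32.9%. The WT-only count was then 28 to 54, the edKO-only count 1 to 14, the difference in share of peaks -0.0688 to -0.0312 and the ratio of peaks 0.558 to 0.692. With 1 edKO library left, a single missing call is enough, so those shares are higher by construction. Leaving out a library of either genotype can likewise only keep or raise the edKO-only count. With 1 WT library left, a call in that library is enough for a region to be counted in the base. The base for all members was then 126 regions without WT 1 and 100 without WT 2, in place of 84. With a window of 50 kb the mural share was 20%, beside 18.3% for all genes. The ratio of peaks was 0.883 with lists of equal length. The epicardial share was above that of all genes with −log10 p of at least 10 (20%, beside 19.6%), a window of 5 kb (25%, beside 16.6%), a cover of 50% (23.1%, beside 22.7%), the nearest body (20%, beside 17.7%), without edKO 1 (35.7%, beside 32.9%) and without WT 1 (40%, beside 31.6%), and below it in the remaining 6 settings. The alternative without Des and Abcc9 was chosen after seeing the data. Both are mural genes, so the fibroblast and epicardial shares could not change in it.

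No paired analysis was possible because the results are calls in 2 hearts against 2, with no fitted model to which a replicate block could be added. The lowest pileup called in a list was 6 or 7 fragments, and WT-only regions had 10 to 36 in the WT libraries. The part of depth in the missing calls was not tested. With 2 hearts per genotype no permutation test can go below p = 0.333.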

Other observations

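Of the 160 member regions, 60 (37.5%) were called in a single library, beside 36.8% near any protein-coding gene. They were split over the libraries as 4 in edKO 1 (6.67%), 13 in edKO 2 (21.7%), 11 in WT 1 (18.3%) and 32 in WT 2 (53.3%). Near any protein-coding gene the split was 11.5%, 27.5%, 24.4% and 36.5% in the same order of libraries. Near mural genes it was 0 in edKO 1, 8 in edKO 2, 6 in WT 1 and 16 in WT 2. A region in the body of Loxl1 had a pileup of 24 in edKO 1 alone (chromosome 9, 58308402 to 58308760), and a region in the flank of Tbx18 had 16 in edKO 2 alone (chromosome 9, 87739625 to 87739959). At the start of Cspg4 a region was called in WT 1 alone, with a pileup of 33 (chromosome 9, 56864896 to 56865152). A start of Postn was called in 1 heart of each genotype, with pileups of 13 in edKO 1 and 18 in WT 2 (chromosome 3, 54360949 to 54361218).

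Among the lists of other cells, erythroid genes had 3 WT-only regions of 10 called in both WT hearts (30%), neural and Schwann genes 3 of 7 (42.9%), endothelial genes 7 of 27 (25.9%), immune genes 2 of 12 (16.7%) and cardiomyocyte genes 13 of 79 (16.5%). These lists are short, and differences among them were not tested.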
